A study of Caenorhabditis elegans with 2 samples.

Results

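The vitellogenin genes vit-1, vit-2, vit-3, vit-4, vit-5 and vit-6 are the 6 yolk protein genes of the nematode Caenorhabditis elegans, taken by symbol from 19973 protein-coding genes of the nuclear chromosomes. Binding of a tagged protein to them was read from chromatin immunoprecipitation followed by sequencing. The protein was the product of a chromosome I gene called dox-1 in the labels (dxbp-1 where they name what CRISPR targeted), tagged with TY1, EGFP and 3xFLAG in strain RW12180. Whole young adults were harvested at 66 hours after bleaching and starvation as L1 larvae, and the fusion protein was pulled down with an anti-GFP antibody from chromatin sonicated to 200 to 800 bp. All samples form 1 group of 2 biological replicates from the same strain, so no condition was compared. Worms without the tag and the experiment listed as a possible control were not analysed here. The sex of the worms was not recorded. Because the lists give peaks and no reads, depth is unknown. Peaks from whole animals cannot be assigned to a tissue, and they measure no expression against which the intestine could be checked.

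Vitellogenins are large lipid-carrying proteins. The intestine of the adult hermaphrodite makes them and secretes them into the body cavity, and growing oocytes take them up through the receptor RME-2 as food for the embryo. Their short promoters are known for a pair of sequence elements, VPE1 and VPE2, and VPE2 is of the kind bound by GATA factors. The genes vit-1 to vit-5 encode closely related proteins, while vit-6 encodes a more distant precursor that is cut into smaller yolk proteins.

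The 250 bp upstream of every vit gene held the VPE1 letters TGTCAAT on either strand, against 4.81% of the 19973 promoters of protein-coding genes (961 of them). The VPE2 letters CTGATAA stood in 5 of the 6, all but vit-3, against 7.20% of all promoters (1439 of them). Both stood in 5 of 6 vit promoters and in 79 of all 19973 (0.396%). These elements were named in the vitellogenin promoters themselves, so their frequency there is a description and not a finding of these data. A match describes letters in a window and is not a binding site, and the motifs do not overlap each other in the promoters shown. The promoters of 4 members follow as the last 200 bases before the Ensembl gene start, 5′ to 3′ on the gene's strand of WBcel235 (the assembly of ce11), with VPE1 and VPE2 matches of either strand in capitals. The promoters of vit-1 and vit-2 are shown because their starts carried a peak in the conservative peak set described below. That of vit-3 is shown because it lacks the exact VPE2 letters, and that of vit-6 because no thresholded peak lay at this gene.
vit-1 (chrX:7727689-7727888, plus strand): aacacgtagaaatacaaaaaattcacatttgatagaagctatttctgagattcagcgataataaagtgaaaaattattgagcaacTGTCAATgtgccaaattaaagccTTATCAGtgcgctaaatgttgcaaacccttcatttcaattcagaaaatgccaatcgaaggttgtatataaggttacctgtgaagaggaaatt
vit-2 (chrX:5100842-5101041, plus strand): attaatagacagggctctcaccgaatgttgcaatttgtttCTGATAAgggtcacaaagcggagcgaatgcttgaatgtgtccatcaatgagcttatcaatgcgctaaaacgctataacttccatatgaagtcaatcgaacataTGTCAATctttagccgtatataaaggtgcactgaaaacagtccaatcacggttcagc
vit-3 (chrX:3572550-3572749, minus strand): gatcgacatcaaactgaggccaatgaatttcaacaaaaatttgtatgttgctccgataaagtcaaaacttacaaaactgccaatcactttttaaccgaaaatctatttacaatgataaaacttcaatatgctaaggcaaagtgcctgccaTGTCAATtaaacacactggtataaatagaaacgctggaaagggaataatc
vit-6 (chrIV:8260957-8261156, plus strand): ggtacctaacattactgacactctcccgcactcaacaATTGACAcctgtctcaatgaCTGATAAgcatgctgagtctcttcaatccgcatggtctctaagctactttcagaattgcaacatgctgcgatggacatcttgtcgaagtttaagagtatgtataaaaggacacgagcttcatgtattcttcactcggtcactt

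The authors deposited 2 thresholded sets called from both samples together, a conservative and a larger set, a thresholded set for each replicate, and a ranked list for each replicate before any threshold. Each peak has a summit and a signal value of the authors' own, which is used here only to describe and rank peaks. The irreproducible discovery rate (IDR) estimates how often peaks of a given rank do not repeat between runs, and 0.01 was its ceiling in the thresholded sets. There were 3291 conservative peaks, whose median signal was 255.6, and 56265 and 65301 peaks in the ranked lists of replicates 1 and 2. A gene was counted when a summit lay in it or up to 1000 bp upstream of its start.

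In the conservative set, 3 of the 6 vit genes had a peak, namely vit-1, vit-2 and vit-3. By the same rule, 13.4% of all protein-coding genes had a peak, and 13.1% of the 2731 protein-coding genes on X, where 5 of the 6 members lie. The windows of the vit genes were 6.13 to 6.30 kb long, against a median of 3.03 kb over all protein-coding genes, and a longer window can hold a summit more easily. Per length, the 6 windows held 0.0806 conservative summits per kb, against 0.0391 over the windows of all protein-coding genes. With 3 summits in 37.2 kb this value rests on few peaks.

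The start of vit-2 (X:5101042-5106169, plus strand, 5128 bp) carried the strongest of these peaks. Its signal over both samples was 250.7, which placed it at rank 1702 of the 3291 conservative peaks, near the median of the set. At this peak the signal was 123.7 in replicate 1 and 128.1 in replicate 2, or 126 ± 3.12 (SD, n = 2). The signals of the replicates were close, while their summits lay 35 bp after the start in replicate 1 and 121 bp after it in replicate 2. Among the vit genes, vit-2 was the one with a peak in each of the 4 thresholded sets.

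The vit-2 summit lay 127 bp after the gene start, in coding sequence and also in the window of the noncoding RNA gene C42D8.16, and the peak ran from position -91 to position 344, counted from the start with upstream negative. This interval over both samples therefore covered the VPE1 letters, 57 to 51 bp upstream, but not the VPE2 letters, 160 to 154 bp upstream. The replicates differed here. The replicate 1 peak (X:5100875-5101278) covered both elements, and the replicate 2 peak (X:5100943-5101382) covered VPE1 only. The bases within 50 bp of the summit over both samples, under the strongest vit peak, follow with the summit base in capitals. They do not reach the replicate 1 summit, 35 bp after the start.
vit-2 summit (chrX:5101119-5101219, plus strand): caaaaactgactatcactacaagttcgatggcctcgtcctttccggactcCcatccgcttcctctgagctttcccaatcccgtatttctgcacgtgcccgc

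The start of vit-1 (X:7727889-7733168, plus strand, 5280 bp) carried a weaker peak, with its summit at position -28. Its signal over both samples was 139.6, rank 3129 of 3291. In the replicates it had 90.3 and 81.3, or 85.8 ± 6.37 (SD, n = 2), with an IDR of 0.0342 and 0.0454 in the ranked lists. It was therefore outside the thresholded set of either replicate, and it was outside the larger set too, although 3054 of the 3291 conservative peaks recurred there. The interval over both samples, from position -246 to position 189, covered VPE1 and VPE2. So did the replicate 2 peak (X:7727641-7728080), while the replicate 1 peak (X:7727839-7728242) covered neither. The ranked summit lay 152 bp after the start in replicate 1 and at position -28 in replicate 2. Within 250 bp of their start, 5.25% of all protein-coding genes had a conservative summit, as vit-1 and vit-2 did.

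The peak of vit-3 (X:3567355-3572549, minus strand, 5195 bp) lay at the other end of the gene. Its summit was 5193 bp after the start, in the 3' UTR and 1 bp from the annotated end. The signal over both samples was 183.6, rank 2676 of 3291, and the replicates gave 87.3 and 112.1, or 99.7 ± 17.5 (SD, n = 2). Replicate 2 was higher, and the peak was in its thresholded set, while the IDR in replicate 1 was 0.105. The replicate 1 summit that overlapped it lay 160 bp from the summit over both samples, inside the gene.

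The thresholded sets differed in which of the remaining genes they held. The larger set counted 3 vit genes against 17.1% of all protein-coding genes, or 17.6% of those on X, and they were vit-2, vit-3 and vit-5. In it, vit-5 (X:3403471-3408603, plus strand, 5133 bp) had peaks in coding sequence 3812 bp and 4691 bp after the start, with signals of 155.7 and 147.0 over both samples. At the peak nearer the start the replicates had 72.4 and 73.98, and at the other 88.7 and 59.4. The larger set also had a second vit-2 peak, 4189 bp after the start in coding sequence, with 146.0 over both samples and 69.8 and 98.0 in the replicates.

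Each replicate alone counted 2 vit genes. In replicate 1 they were vit-2 and vit-4, against 12.6% of all protein-coding genes, and in replicate 2 vit-2 and vit-3, against 12.5%. On X the shares were 11.9% and 11.5% of protein-coding genes. The peak of vit-4 (X:3558769-3563965, minus strand, 5197 bp) lay 4900 bp after the start in coding sequence, with a signal of 114.2 in replicate 1. In the last 500 bp of vit-4 the highest ranked peak of replicate 2 had 45.4, so the replicates differed more there than at vit-2. Replicate 2 had a ranked peak of 85.5 whose summit lay 58 bp past the annotated end, outside the window. No thresholded set held a peak at vit-6 (IV:8261157-8266459, plus strand, 5303 bp). Its highest ranked peak nearby, 92.9 in replicate 2, had its summit 190 bp past the end, and the 3' end of the neighbouring gene K07H8.8, on the minus strand, lies 185 bp past that end.

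**Figure D1:**
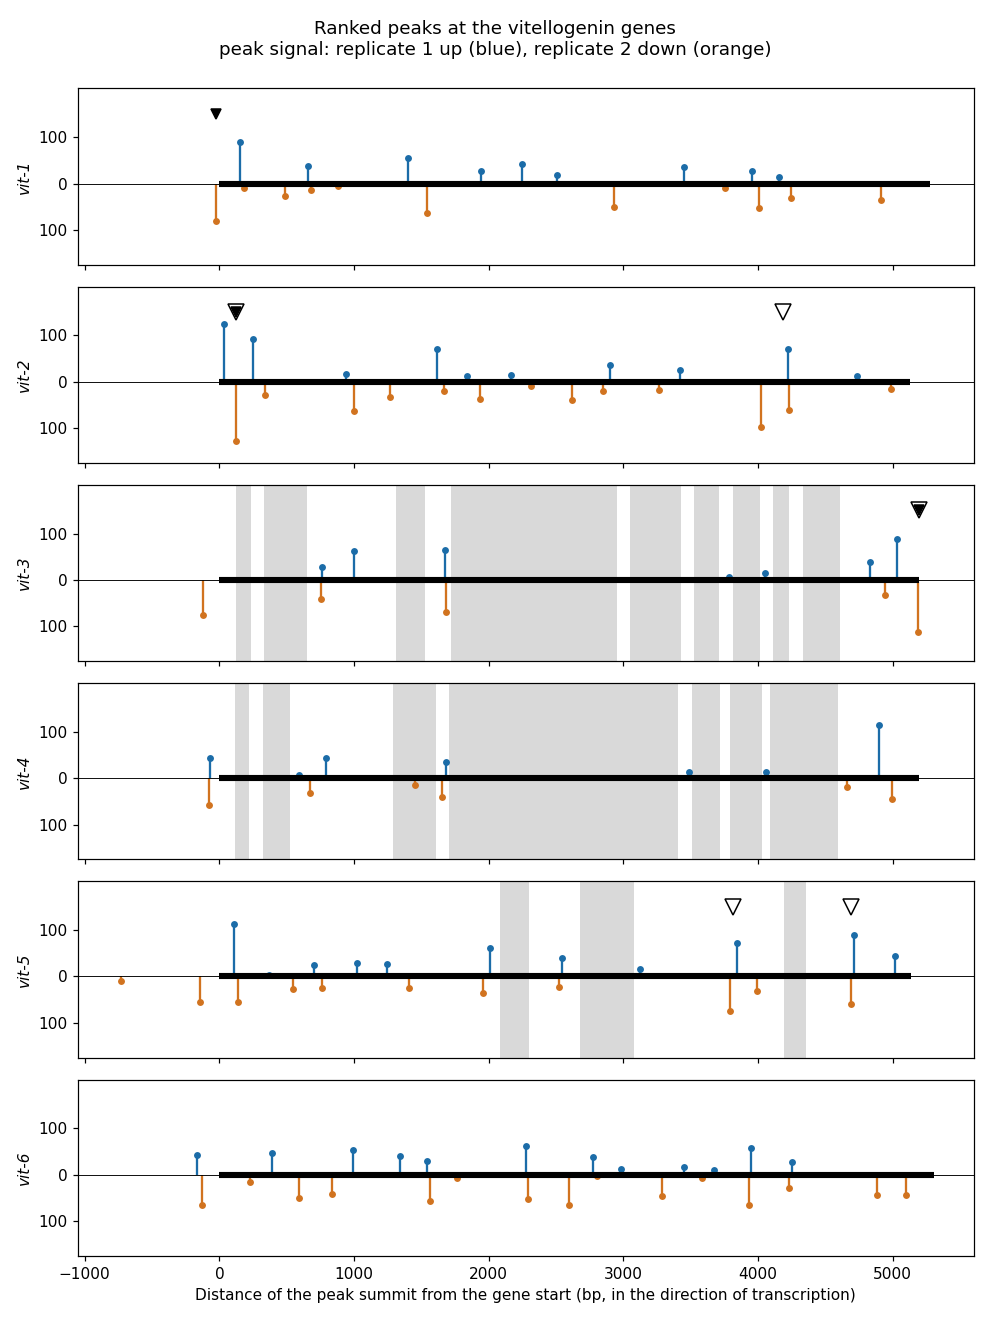
Each panel plots a vit gene, with the distance of each ranked peak summit from the gene start in bp on the x axis and the peak signal on the y axis, upwards for replicate 1 (blue) and downwards for replicate 2 (orange). The black bar is the gene, filled triangles mark the 3 conservative summits at a fixed height, open triangles the 5 summits of the larger set, and grey bands are stretches of at least 100 bp in which every 50-base word occurs more than once in the genome. Summits spread along vit-1, vit-2, vit-5 and vit-6. Those of vit-3 and vit-4 leave long gaps, and the widest grey bands of these genes hold none.

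Below the thresholds, every vit gene carried several weak peaks, with long gaps in vit-3 and vit-4. In replicate 2, vit-3 had no ranked summit between 1682 and 4945 bp after the start. In the same replicate, vit-4 had none between 1654 and 4659 bp. The ranked lists put 56 summits in the 6 windows in replicate 1 and 61 in replicate 2. Of these, 52 and 54 lay in coding exons, and 2 and 6 lay upstream of a start. Each window held 5128 to 5303 bp of gene and 1000 bp upstream, so most summits would lie in genes by length. The same split over all genes was not made. The median signal of these peaks was 37.8 in replicate 1 and 36.6 in replicate 2, against 28.9 and 27.8 over all ranked peaks. Most did not pass even a looser reproducibility threshold: 7 of the 56 (12.5%) and 5 of the 61 (8.20%) had an IDR of at most 0.05, against 8.99% and 7.57% of all ranked peaks.

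Taken over the 6 windows, the ranked summits were dense. The 6 windows together held 1.50 ranked summits per kb in replicate 1 and 1.64 in replicate 2, against 0.639 and 0.727 over the windows of all protein-coding genes. The windows of the protein-coding genes on X held 0.520 and 0.755. vit-6 had the highest density in either replicate, at 1.90 and 2.38 per kb, above 94.0% and 98.4% of protein-coding genes. vit-2 had 1.63 and 2.12 per kb, and vit-5 had 1.79 in each. The density of vit-1 was 1.43 and 1.75 per kb. The lowest were vit-3, with 1.13 and 0.807, and vit-4, with 1.13 and 0.968 per kb. vit-3 was above 72.8% and 56.4% of protein-coding genes, and vit-4 above 72.8% and 62.8%. These densities are over whole windows, which in vit-3, vit-4 and vit-5 include long stretches of sequence shared between copies, described below.

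**Figure D2:**
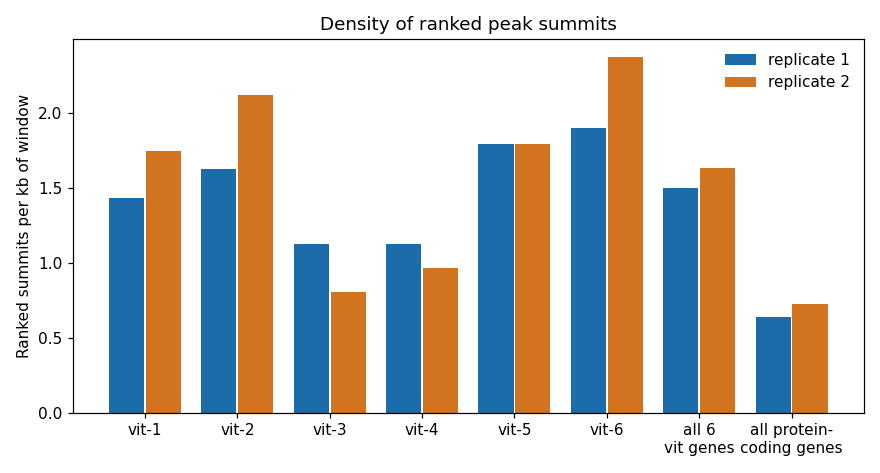
Bars give ranked summits per kb of window (the gene and 1000 bp upstream) for each vit gene, for the 6 together and for all protein-coding genes, in replicate 1 (blue) and replicate 2 (orange). All 6 vit genes stand above the value over all genes in both replicates, vit-3 and vit-4 least.

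The positions recurred only in part. Of the 56 summits of replicate 1 in vit windows, 31 (55.4%) had a replicate 2 summit within 100 bp, against 47.5% of the ranked summits in windows of all protein-coding genes. Of the 61 of replicate 2, 31 (50.8%) had a replicate 1 summit within 100 bp, against 41.7%. A summit within 100 bp is met more easily where summits are denser, as they were in the vit windows. These shares therefore do not compare reproducibility. By gene, the share of replicate 1 summits that recurred ranged from 42.9% at vit-3 to 70% at vit-2.

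The copies differ in how much of their sequence is their own. In a global alignment of the genes, vit-3 and vit-4 were 97.97% identical, vit-4 and vit-5 97.4%, and vit-3 and vit-5 96.9%. vit-1 and vit-2 were 93.2% identical, and no other pair passed 70.3%. vit-3 and vit-4 share an exact run of 1326 bases, while the longest run shared by vit-1 and vit-2 is 172 bases. Their promoters are less alike, with 70.7% identity over the 250 bp upstream of vit-3 and vit-4 and 62.6% for vit-1 and vit-2.

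Ranked summits in vit-3, vit-4 and vit-5 lay almost wholly outside stretches in which every 50-base word is repeated in the genome. A base was called repeated when every 50-base word over it occurred more than once in the genome on either strand. Any other base was called unique, even where the copies share that base and most words over it are repeated. The 7.45 kb of unique sequence in these genes held 23 summits in replicate 1 and 17 in replicate 2, or 3.09 and 2.28 per kb. The 8.08 kb of repeated sequence held 1 summit in each replicate, or 0.124 per kb. Unique sequence of vit-1 and vit-2 had 1.89 and 2.19 summits per kb, and vit-6, which is unique throughout, had 2.07 and 2.64. In replicate 1 the unique sequence of vit-3, vit-4 and vit-5 was thus denser in summits than vit-6, and in replicate 2 it was less dense. The longest repeated stretch of vit-4 (1707 bp) and that of vit-3 (1228 bp) held no ranked summit in either replicate.

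The sources used here do not state how reads that fit several places were treated, so their part in this pattern was not tested. In repeated stretches of vit-3, vit-4 and vit-5 a lack of summits is therefore no measure of binding. None of the 50-base words within 100 bp of the 3 conservative summits was repeated in the genome. Of the words around the vit-4 summit of replicate 1, 85.5% were repeated, and around the vit-5 summits of the larger set 37.5% and 43.4%.

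**Figure D3:**
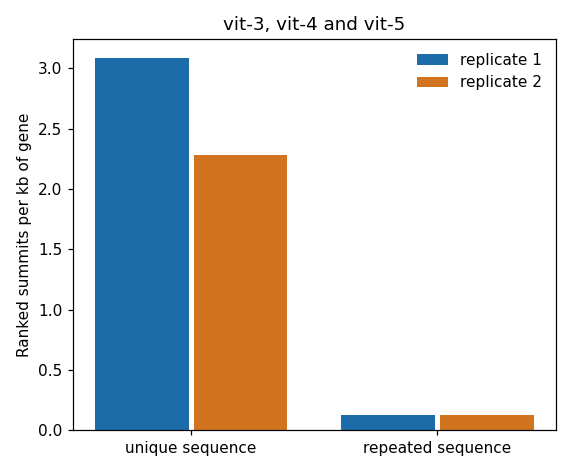
Bars give ranked summits per kb of gene in vit-3, vit-4 and vit-5 together, in sequence that is unique in the genome (left) and in repeated sequence (right), for replicate 1 (blue) and replicate 2 (orange). Unique sequence had 3.09 and 2.28 summits per kb, and repeated sequence 0.124 in each replicate.

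The highest ranked peak gives every member a value whether or not it passed a threshold. It was highest at vit-2, with 126 ± 3.12 (SD, n = 2), as given above. It was 99.7 ± 17.5 (SD, n = 2) at vit-3. At vit-5 the values were 112.7 in replicate 1, at 112 bp after the start, and 73.98 in replicate 2, at 3793 bp, or 93.4 ± 27.4 (SD, n = 2). The highest peaks of the replicates thus lay at different places in vit-5.

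The other 3 members had lower means. At vit-4 the values were 114.2 and 58.3, or 86.2 ± 39.6 (SD, n = 2), with the replicate 2 peak at position -80. At vit-1 they were those of its conservative peak, 85.8 ± 6.37 (SD, n = 2). At vit-6 they were 61.3, at 2278 bp after the start, and 65.96, at position -131, or 63.6 ± 3.29 (SD, n = 2). These vit-6 peaks had an IDR of 0.349 and 0.497 and lay at different places, so their close values are no repeated peak. The replicate 2 peaks of vit-4 and vit-5 had an IDR of 0.106 and 0.0885, against 0.00244 and 0.0115 in replicate 1. In the order of the means, both values of vit-2 lay above both of vit-3, and both values of vit-1 above both of vit-6. The neighbours vit-3, vit-5, vit-4 and vit-1 overlapped from each to the next.

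Set beside all protein-coding genes, these values were above the middle, most so at vit-2. Each is the highest of all ranked summits in a window, and vit windows were 6.13 to 6.30 kb long against a median of 3.03 kb. A longer window with more summits can reach a higher maximum more easily, and no adjustment for length was made. Counting genes without a ranked summit as lower, vit-2 exceeded 90.8% of protein-coding genes in replicate 1 and 90.9% in replicate 2. In the same order of replicates, vit-3 exceeded 85.2% and 88.8%, vit-1 85.8% and 81.7%, and vit-5 89.6% and 78.9%. The figures were 89.8% and 69.9% for vit-4 and 74.1% and 75.1% for vit-6. The median over the 6 members was 101.5 and 77.7, against 59.5 in replicate 1 and 54.6 in replicate 2 over the 10881 and 13167 protein-coding genes with a ranked summit. The genes most like vit-2 by the distance of both replicates' log2 values were lmd-3, with 123.6 and 130.2, C25F6.1, with 123.1 and 126.0, and Y94H6A.5, with 123.3 and 130.4. Their distances were 0.0235, 0.0257 and 0.0257 on the log2 scale over 2 samples, and many genes have values near these.

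**Figure D4:**
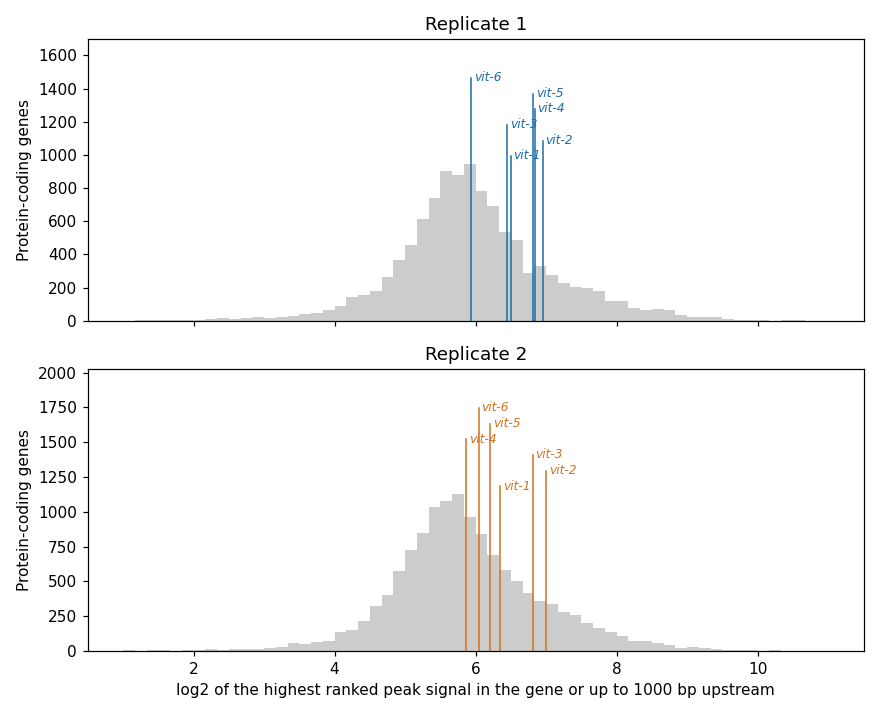
Grey bars count protein-coding genes by the log2 of their highest ranked peak signal in the gene or up to 1000 bp upstream, in replicate 1 (top) and replicate 2 (bottom), and lines mark the 6 vit genes (line heights carry no value). The vit genes lie between 61.3 and 123.7 in replicate 1 and between 58.3 and 128.1 in replicate 2, at or right of the tallest grey bars.

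Near the starts, signal differed between members and replicates. Within 250 bp of the start, vit-5 had 112.7 in replicate 1 and 55.2 in replicate 2. vit-6 had 42.8 and 65.96, and vit-4 had 43.2 and 58.3. For vit-3, replicate 1 listed no summit there and replicate 2 had 75.4. Only vit-1 and vit-2 had start peaks above 80 in both replicates. Annotated noncoding RNA genes overlap the starts of vit-3 (T27A10.8) and vit-4 (F59D8.3), and another, K07H8.16, lies 7 bp upstream of vit-6.

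Conservative peaks also lay just outside the windows. Past the end of vit-2, where C42D8.9 overlaps it on the other strand, summits lay 193 bp and 455 bp beyond the annotated end, with 172.1 and 213.6 over both samples. Upstream of vit-1, a summit with 174.7 lay at position -1823, inside spp-14, a saposin-like protein gene. These neighbouring peaks were stronger than the peak of vit-1 itself.

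Peaks at genes that handle yolk ranged from signals like those of the vit genes to signals well above every vit value. The lists were chosen with earlier results of these data known, and their counts are read only beside the 13.4% of all protein-coding genes with a conservative summit. Of 10 genes of yolk uptake and endosomal traffic, 6 had a conservative summit in the gene or up to 1000 bp upstream (60%). The yolk receptor gene rme-2 had its stronger summit at position -68, with 206.1 and 237.1 in the replicates, or 222 ± 21.9 (SD, n = 2). Both values exceeded every vit value. The early endosome GTPase gene rab-5 had 291.9 and 346.8, with its summit at position -724. rab-7, of late endosomes, had 334.7 and 253.1, with its summit at position -752. Whether a summit also lay in the window of another gene was not checked for the genes of these lists.

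In the same list, rab-11.1, of recycling endosomes, had 189.8 and 129.8 at a summit at position -648. The clathrin heavy chain gene chc-1 had 124.6 and 89.3 at a summit at position -449. rme-1, whose product recycles receptors to the cell surface, had 77.3 and 104.1, and its replicate 1 value lay below the 81.3 to 128.1 of the vit genes at their conservative peaks. The other 4, rme-4, rme-6, rme-8 and rab-10, had no conservative summit.

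Of 4 genes of lipoprotein assembly and folding in the endoplasmic reticulum, 3 had a conservative summit (75%). The disulfide isomerase gene pdi-2 had 216.8 and 150.3. The chaperone genes hsp-3 and hsp-4 stood far apart, with 483.9 and 405.8 at hsp-3 and 96.98 and 97.2 at hsp-4. Their summits lay at position -28 for hsp-3 and position -589 for hsp-4. dsc-4, which encodes the microsomal triglyceride transfer protein that loads lipid onto such proteins, had none, and its highest ranked peaks had 43.7 and 38.7.

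Of 15 genes listed as regulators of vit transcription, 4 had a conservative summit (26.7%). mab-3, a DM-domain repressor of vit genes in males, had 174.9 and 114.2 at a summit at position -92. rict-1, which encodes the Rictor subunit of TOR complex 2, had 126.6 and 129.8 at a summit at position -512. The bZIP gene zip-2 had 234.1 and 248.3 at a summit 877 bp after its start. daf-16, the FOXO factor gene of insulin signalling, had 5 conservative summits, the strongest with 147.4 and 114.8. elt-2, the main GATA factor gene of the intestine, had no conservative summit and no ranked summit in replicate 1, and 129.3 in replicate 2. The homeobox genes unc-62 and ceh-60 had no conservative summit either, and ceh-60 had no ranked summit in either replicate.

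Other genes listed as strongly expressed in the adult intestine gave a further comparison, and their expression was not measured here. Of 9 matched among 10 listed, 2 had a conservative summit (22.2%). The aspartyl protease gene asp-1 had 116.5 and 89.1 at 49 bp after its start, and the intermediate filament gene ifb-2 had 117.8 and 141.2. The asp-1 values fell in the range of the vit genes, and the higher ifb-2 value lay above it. The fatty acid desaturase gene fat-7 and the metallothionein gene mtl-2 had no ranked summit in either replicate.

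**Figure D5:**
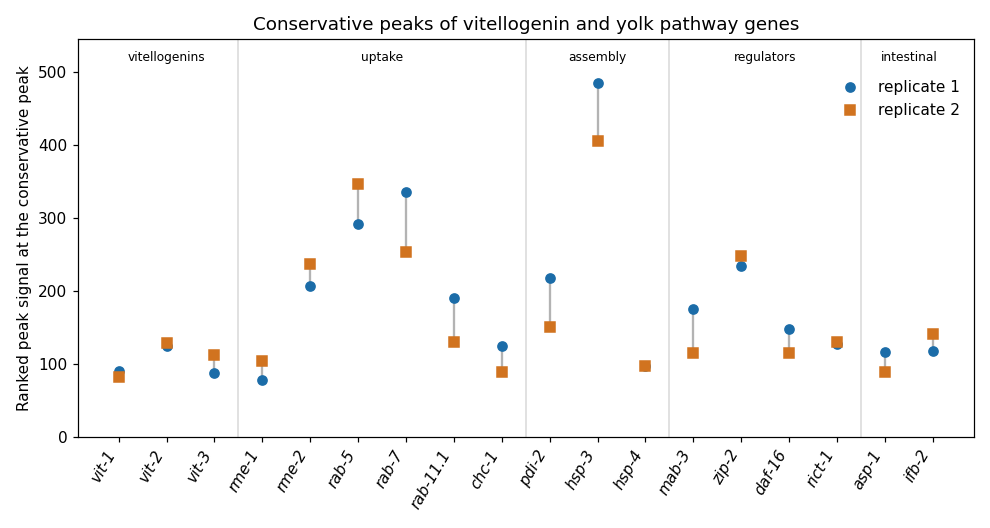
Points give the ranked peak signal at the strongest conservative peak of each vit, yolk pathway or listed intestinal gene that has such a peak. Replicate 1 is shown as blue circles and replicate 2 as orange squares. The 3 vit genes lie between 81.3 and 128.1, while rme-2, rab-5, rab-7, hsp-3 and zip-2 lie above 200 in both replicates.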

How the data were processed

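Chromatin immunoprecipitation peaks of 2 biological replicates were used as deposited. Per the file headers and notes, the authors made the peak lists on assembly ce11 from alignments of each sample or of both. Aligner and peak caller: not given in the sources used here. Signal values are the authors' own, and no scaling between samples is stated. In the ranked lists the authors give the IDR as a −log10 value. The lists hold no read counts, so no depth or interval is given. The ranked lists called over both samples were not used.

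Genes came from Ensembl release 115 on WBcel235 and sequence from the RefSeq genome of that assembly; peak ends stayed within its chromosome lengths. Ensembl and RefSeq spans of the vit genes are equal except the vit-2 start, 10 bp apart. Summits are 1-based. At a conservative peak, a replicate's value is its highest overlapping ranked peak. Windows of genes can overlap. Named genes were all 6 members, the 3 genes nearest to the highest member, and listed pathway and intestinal genes with a conservative summit. Genes named after their values were seen were elt-2, unc-62, ceh-60, dsc-4, fat-7, mtl-2, gene neighbours and listed genes with no such summit. opt-2 matched no symbol. With 1 group and a list chosen with earlier results of these data known, as all lists here were, no test was run. The ranked lists of the replicates shared 0 identical peaks. Window assignment was tested on simulated data. Python 3.11.15, numpy 2.4.6, pandas 2.3.3, biopython 1.88 and matplotlib 3.10.9 were used.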

Additional observations from a re-analysis of the deposited data

How the results depend on the processing

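No paired analysis was possible because both replicates belong to 1 group. With only conservative peaks at or above the median signal of that set, 0 vit genes and 0 vit summits were left, and 8.04% of all protein-coding genes. The larger set had 5 vit summits in place of 3. Leaving out a replicate gave 2 vit genes and 2 summits either way, and 12.5% to 12.6% of all genes. The number of vit genes stayed at 3 with the other overlap rules and upstream windows. The median replicate signal at the conservative peaks, 99.7, ranged from 90.3 to 112.1 with a replicate left out, and the median highest signal, 89.8, from 77.7 to 101.5. Both medians had no value at an IDR of at most 0.05, since vit-3 to vit-6 then lacked a peak in a replicate. With peaks touching the window counted, vit-6 had a mean of 77.1 in place of 63.6, because a peak past its end then counted. Unique minus repeated sequence of vit-3, vit-4 and vit-5 differed by 2.56 ranked summits per kb (2.16 to 2.96 with a replicate left out). With word lengths chosen after seeing the data, it was 1.84 for 100 bases and 2.59 for 36.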
